A study of Homo sapiens with 30 samples.

Results

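EGR1, EGR2, EGR3, EGR4, IER2, NR4A1, ARC and SRF, a set of immediate-early genes of the serum response pathway, were followed through every group of the series. The members were the rows of the raw count table with these 8 symbols. All 8 had 1 row each, among 60664 genes. Every one was measured in 30 libraries, in 10 groups of 3.

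Immediate-early genes are transcribed within minutes of a growth signal or a stress, without new protein synthesis. SRF, the serum response factor, binds CArG boxes in their promoters together with ternary complex factors such as ELK1, which the MAP kinases phosphorylate, or with the actin-sensing MRTF proteins. EGR1 to EGR4 are zinc finger transcription factors, IER2 is a small nuclear regulator of transcription, NR4A1 is an orphan nuclear receptor, and ARC is a capsid-like protein best known from neurons. HEK293 cells are an established human embryonic kidney line, and arsenite, which oxidises and binds thiols, activates stress kinases and stops translation.

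The lines were Flp-In T-REx HEK293 derivatives (FT293) with a GFP fusion of TIA1a, a protein that binds RNA and helps to form stress granules. One carried wild-type TIA1a (WT) and the other the protein of Welander distal myopathy (WDM). In the cytosol, each line was sampled untreated, with tetracycline, and with tetracycline followed by 0.5 mM sodium arsenite for 60 min. In a high-speed pellet pulled down through GFP, called the granule fraction here, each line was sampled with tetracycline alone and with tetracycline and arsenite. The Flp-In T-REx system switches the transgene on with tetracycline, so all groups except the untreated ones had the inducer, and a pull-down without arsenite comes from cells not stressed on purpose. The labels do not say whether replicates came from separate cultures or how many clones a line holds, so p-values measure the spread between these libraries only.

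Total counts ran from 5906167 to 27419145 per library, and a count of 0 allows up to 3 counts, or 0.109 to 0.508 CPM (counts scaled by the library total) depending on the library. That floor covers counting error only. The summed level of 6 genes known from HEK293 cells was 1007 to 1315 CPM in cytosol and 538 to 720 CPM in granules. The epithelial genes EPCAM and CDH1 summed to 82.1 to 140 CPM in cytosol and 22.4 to 34.0 CPM in granules. A list of 6 genes of other cell types summed to 1.37 to 5.76 CPM in cytosol and 3.50 to 6.82 CPM in granules, with HBB at 0 in every library.

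CArG boxes, the letters that SRF binds, were searched for on both strands before the members' start sites. RefSeq start-site windows (GRCh38.p14) were held for 6 members, in 10 windows of 250 bases before a start. A CArG box was found in 3 of those windows, which belong to EGR1, SRF and the EGR2 start nearest to the 3' end of the gene. Over all 35116 windows of human genes, 1.16% held a CArG box and 0.0313% held 2 or more, as the EGR1 and SRF windows do. The EGR1 window is chr5:138465229-138465478 on the plus strand, the SRF window chr6:43171019-43171268 on the plus strand, and the EGR2 stretch chr10:62816374-62816616 on the minus strand, which ends 8 bases before its start to leave out exon sequence. They are shown because they hold the CArG boxes, with these and the motif TGACG, read on either strand, in capitals:
EGR1: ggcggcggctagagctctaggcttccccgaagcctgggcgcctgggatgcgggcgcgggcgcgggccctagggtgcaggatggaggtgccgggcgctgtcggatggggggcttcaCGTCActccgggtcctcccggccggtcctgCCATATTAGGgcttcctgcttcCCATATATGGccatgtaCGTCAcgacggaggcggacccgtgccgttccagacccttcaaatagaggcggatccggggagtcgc
SRF: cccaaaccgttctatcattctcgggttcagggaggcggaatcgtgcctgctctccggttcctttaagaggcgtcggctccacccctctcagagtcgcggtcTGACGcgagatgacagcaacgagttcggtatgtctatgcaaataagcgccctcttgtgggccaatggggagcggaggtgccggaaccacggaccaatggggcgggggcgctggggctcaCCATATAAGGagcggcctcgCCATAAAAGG
EGR2: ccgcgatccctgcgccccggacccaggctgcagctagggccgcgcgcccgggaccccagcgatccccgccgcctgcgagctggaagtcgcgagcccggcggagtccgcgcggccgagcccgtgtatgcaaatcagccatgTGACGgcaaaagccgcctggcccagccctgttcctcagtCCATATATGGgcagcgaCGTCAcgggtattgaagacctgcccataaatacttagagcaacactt

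The EGR1 boxes begin 105 and 83 bases before the start and read CCATATTAGG and CCATATATGG. The EGR2 box, 71 bases before its start, has the same letters as the second EGR1 box, CCATATATGG. The SRF boxes lie 30 and 10 bases before its start and read CCATATAAGG and CCATAAAAGG. TGACG, the core of the cAMP response element that CREB and ATF proteins bind, occurred in windows of 5 of the 6 members and in 21.2% of all windows. The EGR site GCGTGGGCG or GCGGGGGCG occurred in 1 member window, that of SRF, and in 5.37% of all windows. The ETS core CCGGAA, searched on both strands, occurred in windows of IER2, NR4A1 and SRF and in 14.5% of all windows, and TATAAA occurred in no member window and in 10.7% of all windows. A count of members takes any window of a gene, and some members have several, so it is not in the same unit as a share of all windows. The matches named here do not overlap each other. A match is a description of the letters and not of a bound factor.

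**Figure D1:**
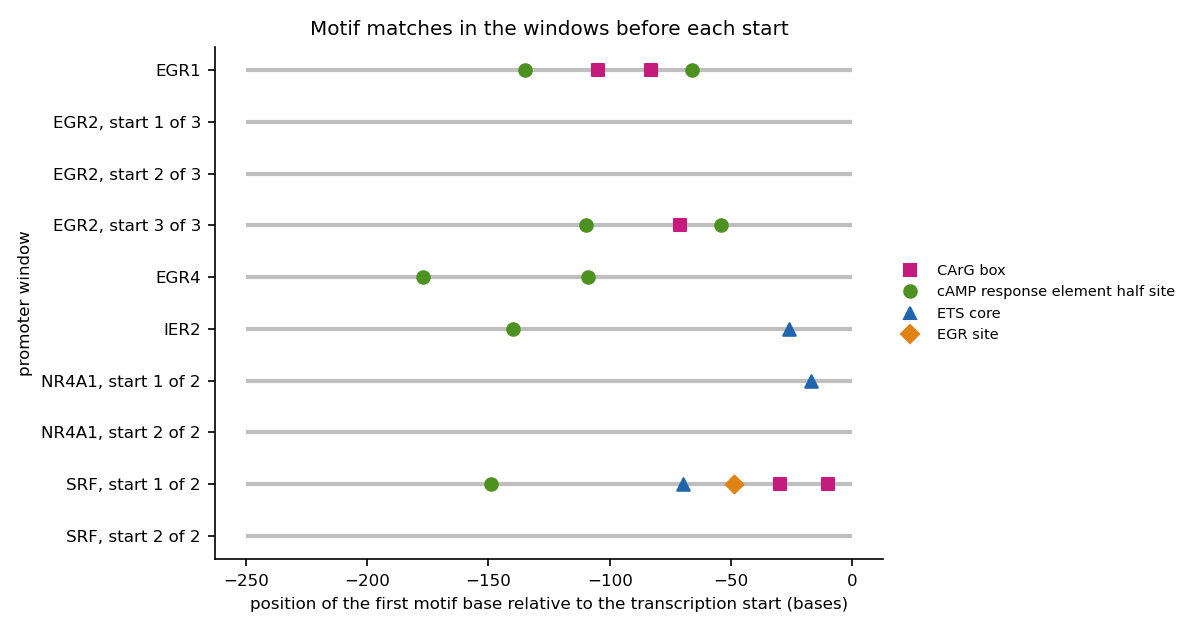
Motif matches in the 10 promoter windows of 6 members; the x axis is the position of the first motif base relative to the transcription start (bases), each grey line is a window, and each symbol a match on either strand. CArG boxes lie in the windows of EGR1, SRF and the EGR2 start nearest to the 3' end of the gene.

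On GRCh38, EGR1 lies on chromosome 5 at 138465479 to 138469303, EGR2 on chromosome 10 from 62811996, EGR3 on chromosome 8 at 22687659 to 22693480, and EGR4 on chromosome 2 at 73290929 to 73293701. IER2 lies on chromosome 19 at 13150411 to 13154911, NR4A1 on chromosome 12 at 52022832 to 52059507, ARC on chromosome 8 at 142611049 to 142614479, and SRF on chromosome 6 at 43171269 to 43181506. Counts cover the exons, which in GENCODE v44 come to between 2373 bases (EGR4) and 7295 bases (NR4A1) per gene. How the table counts these genes limits some values. The table's coordinates equal those of GENCODE v44 for 7 members. For EGR2 the table's gene runs from 62811996 to 62919900 on chromosome 10, past the GENCODE end at 62819167. That stretch covers a long noncoding gene of the same strand, ENSG00000289487, which has no row of its own in the table. EGR2 counts therefore cannot be told apart from that RNA. IER2 shares 52.2% of its exon length with antisense genes on the other strand, but those had 50 and 94 counts over all libraries, against 24643 for IER2. The antisense partner of EGR3 had 148 counts, against 1151 for EGR3, and NR4A1AS had 5 counts, against 7198 for NR4A1. The strand setting of the counting is not given in the sources used here, so reads of a gene and its antisense partner may be mixed.

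Before arsenite, SRF and IER2 were the most abundant members per length and EGR4 was nearly absent. In tetracycline-treated WT cytosol the mean levels per kilobase of exon were 11.7 CPM for SRF and 10.1 CPM for IER2. NR4A1 followed at 1.36 CPM per kilobase, ARC at 0.988, EGR1 at 0.475 and EGR2 at 0.232. The EGR2 value divides by the GENCODE exon length, while its counts come from the longer gene of the table and may include ENSG00000289487. EGR3 was at 0.0312 and EGR4 at 0.0218 CPM per kilobase, both from 2 counts or fewer in each library. With arsenite the order in WT cytosol became IER2 at 38.0, EGR1 at 35.7 and SRF at 11.9 CPM per kilobase. EGR1 stood at rank 13594 of 28278 detected genes by mean CPM before arsenite and at rank 2391 of 29385 after it.

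**Figure D2:**
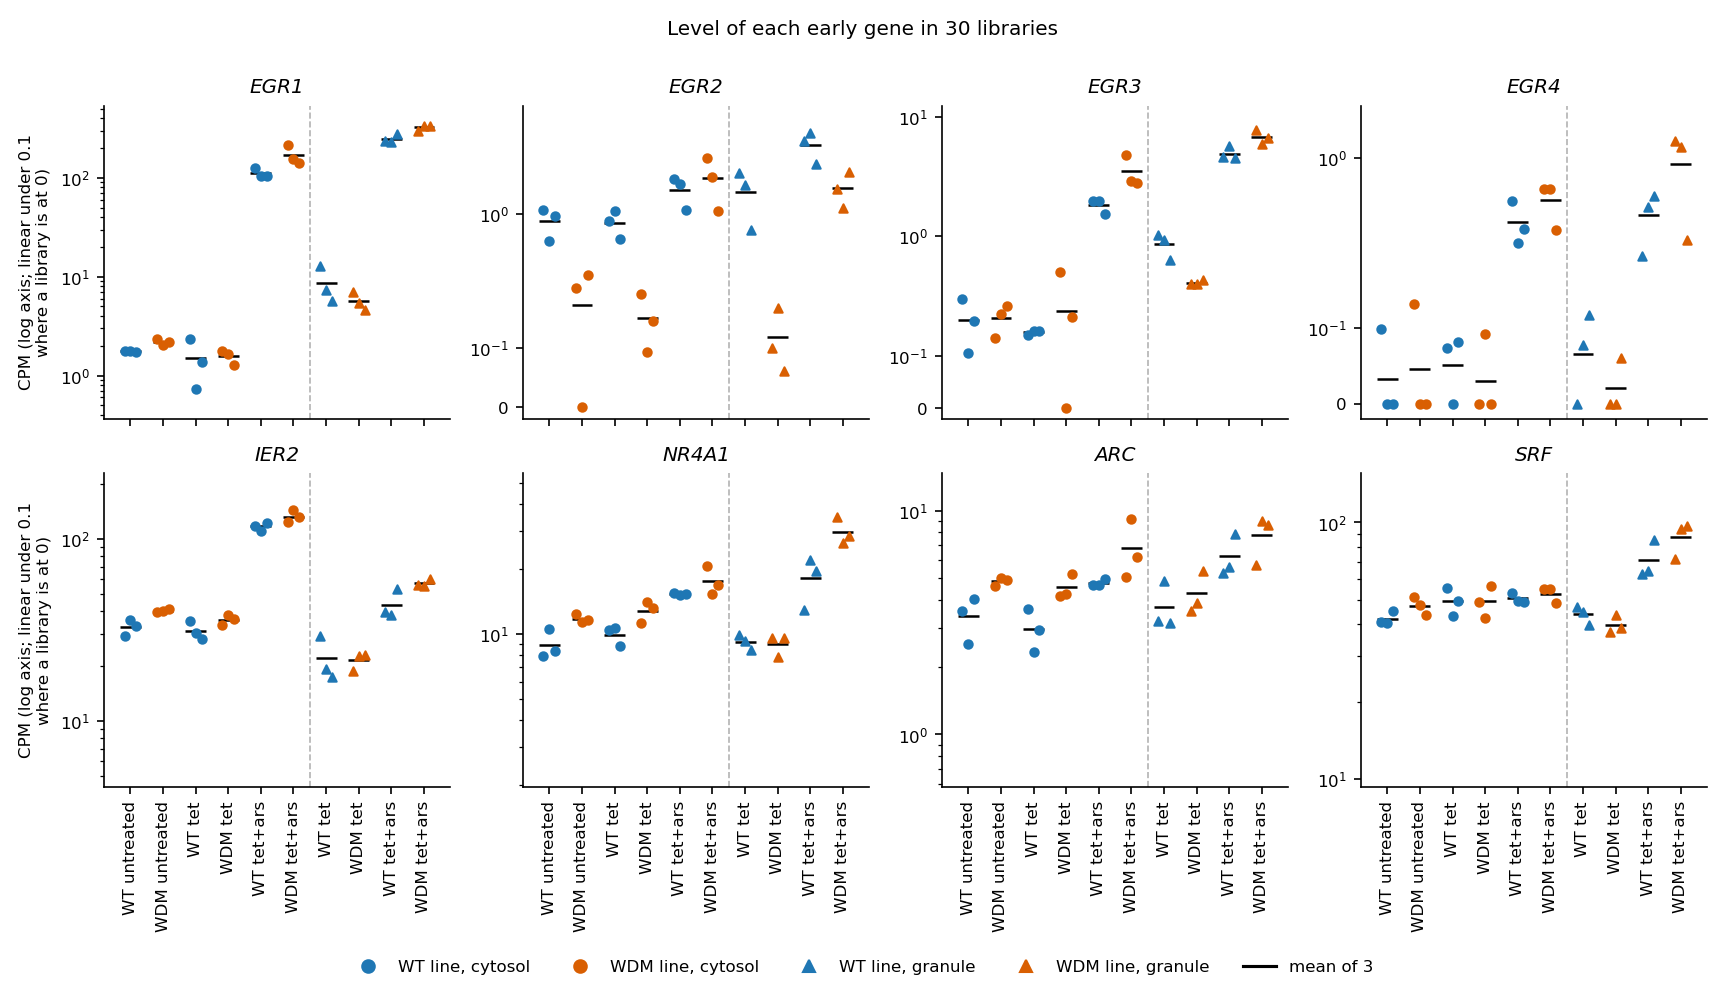
Level of each member in CPM (log axis, linear under 0.1 where a library is at 0) in the 10 groups; circles are cytosol and triangles granule libraries, blue is WT and orange WDM, and the black line is the mean of 3. EGR1 lies between 0.726 and 2.37 CPM in every cytosol library without arsenite and at 104 CPM or more in every one with it.

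The first comparison asked what tetracycline alone did to these genes in cytosol. The drug and the protein it induces cannot be told apart here. None of the 7 members that passed the low-count filter was called in either line. EGR4 was not tested in cytosol. Among all 16670 genes tested, 5.31% were called in WT and 6.30% in WDM cells. A gene is called at an adjusted p under 0.05 in edgeR's quasi-likelihood test with Benjamini-Hochberg adjustment over all genes tested. Log2 fold changes of members ran from -0.29 for EGR3 to 0.27 for SRF in WT cells and from -0.54 for EGR1 to 0.15 for NR4A1 in WDM cells. EGR3 was at or under the floor in both WT groups, so its -0.29 rests on very few counts. At an unadjusted p under 0.05, 1 member, SRF, passed in WT cells and 0 in WDM cells, and DESeq2 called 0 in both. In the interaction of tetracycline and line, 0.0180% of all genes and 0 members were called, and 749 genes had an unadjusted p under 0.05, none of them a member. DESeq2 called 10 genes there and again 0 members.

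Arsenite raised EGR1 more than almost any other gene of the cytosol. EGR1, the founder of the family and a fast transcriptional switch for growth and stress signals, was at 2.36, 0.726 and 1.38 CPM in the 3 WT libraries with tetracycline and at 126, 105 and 104 CPM with arsenite. In WDM cells it was at 1.76, 1.66 and 1.27 CPM before and at 214, 156 and 140 CPM after arsenite. The arsenite libraries lay far above all others, with no overlap in either line, where 28.5% of all genes in WT and 24.9% in WDM had all arsenite libraries on top. The log2 fold change was 6.07 ± 0.210 (SE) in WT (adjusted p = 1.53e-13), a fold of 67.3, and 6.73 ± 0.214 in WDM (adjusted p = 2.79e-14), a fold of 106. In bulk libraries, more cells with EGR1 RNA and more RNA per cell cannot be told apart. By fold change EGR1 ranked 4 among all genes tested in WT and 1 in WDM cells.

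EGR3, which shares the zinc fingers of EGR1 and is known from neurons and lymphocytes, also rose. It had 2 counts in each WT library with tetracycline (0.148, 0.161 and 0.162 CPM) and 25, 25 and 20 counts with arsenite (2.00, 1.98 and 1.53 CPM). Measured against 3 counts in the smallest of the low libraries, EGR3 was at least 7.55-fold higher. In WDM cells EGR3 was at 0.502, 0 and 0.212 CPM before arsenite and at 4.86, 2.92 and 2.78 CPM after it. No library before arsenite reached any library after it in either line. The adjusted p was 9.17e-05 in WT and 5.24e-06 in WDM cells, with fitted log2 fold changes of 3.34 ± 0.489 and 3.90 ± 0.411. EGR3 passed the low-count filter only through the arsenite libraries, since 0 of the other 12 cytosol libraries reached the 0.797 CPM it asks for. Its p-values are therefore given as a description. Over the alternative edgeR and DESeq2 fits its adjusted p ran from 1.33e-09 to 0.00279 in WT and from 4.32e-18 to 0.00347 in WDM cells.

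IER2, whose product acts in the nucleus on transcription and cell migration, rose from a higher level. The WT libraries stood at 35.3, 30.3 and 28.2 CPM with tetracycline and at 118, 111 and 122 CPM with arsenite. The WDM libraries stood at 33.5, 38.2 and 36.2 CPM and then at 123, 143 and 131 CPM. Libraries with and without arsenite did not overlap. The log2 fold change was 1.77 ± 0.0970 in WT (adjusted p = 2.82e-10) and 1.79 ± 0.0966 in WDM (adjusted p = 2.11e-10), and the difference between these was 0.02 with a 95% interval of -0.24 to 0.28.

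NR4A1, which encodes Nur77, rose by less. It was at 10.4, 10.6 and 8.75 CPM in WT cytosol with tetracycline and at 15.4, 15.2 and 15.3 CPM with arsenite (log2 fold change 0.49 ± 0.130, adjusted p = 0.00915). In WDM cytosol it was at 11.2, 14.0 and 13.2 CPM and then at 20.7, 15.3 and 16.8 CPM (0.36 ± 0.126, adjusted p = 0.0375). The groups did not overlap in either line, but in WDM cells the lowest library with arsenite was close to the highest without. The WT call was lost without tetracycline replicate 3 (0.43, adjusted p = 0.0552). The WDM call was lost without tetracycline replicate 1 (0.29, adjusted p = 0.112) or 3 (0.36, 0.0930), without arsenite replicate 1 (0.25, 0.197), with no low-count filter (0.37, 0.0756), and in a fit of only the groups compared (0.36, 0.139).

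EGR2, known from myelination and hindbrain patterning, was called in WDM and not in WT cytosol. In WT cytosol it was at 0.886, 1.05 and 0.648 CPM with tetracycline and at 1.84, 1.67 and 1.07 CPM with arsenite, and the log2 fold change of 0.68 ± 0.392 did not pass (adjusted p = 0.194). In WDM cytosol it had 2, 1 and 3 counts with tetracycline and 40, 32 and 14 counts with arsenite, at least a 4.95-fold increase (adjusted p = 1.71e-04). The WT arsenite libraries had 23, 21 and 14 counts, so after arsenite the lines overlapped. By these counts, which may include ENSG00000289487, the lines stood apart before arsenite and not after it.

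ARC and SRF did not pass in cytosol. ARC was at 3.62, 2.34 and 2.92 CPM with tetracycline and at 4.64, 4.68 and 4.96 CPM with arsenite in WT cells (log2 fold change 0.55 ± 0.230, adjusted p = 0.0759). In WDM cells it was at 4.14, 4.25 and 5.24 CPM and then at 5.05, 9.19 and 6.24 CPM (0.49 ± 0.207, adjusted p = 0.0806). The ARC libraries separated in WT and overlapped in WDM cells. ARC passed with library size as the only scaling (0.68, adjusted p = 0.0350 in WT and 0.57, adjusted p = 0.0484 in WDM), without WT tetracycline replicate 1 (0.69, 0.0403) and without WDM arsenite replicate 1 (0.69, 0.0209). SRF lay between 42.3 and 56.6 CPM in all tetracycline and arsenite libraries of both lines, with log2 fold changes of -0.10 (95% interval -0.29 to 0.10) in WT and 0.01 (-0.19 to 0.20) in WDM cells.

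EGR4, a relative expressed mainly in brain and germ cells, had 0 or 1 count in each of the 6 tetracycline libraries. With arsenite it had 7, 4 and 5 counts in WT and 10, 11 and 5 in WDM cells, which in WT cells is at least 1.73-fold higher. It is given here as a description, since it did not enter the cytosol test. All 6 arsenite libraries had more EGR4 counts than any cytosol library without arsenite.

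In all, 4 of the 7 tested members were called higher with arsenite in WT cytosol, where 13.7% of all genes were, and 5 of 7 in WDM cytosol, where 14.1% of all genes were. Leaving out EGR3, which entered the test through the arsenite libraries, the counts were 3 of 6 and 4 of 6, and the median log2 fold change of these 6 was 0.61 in WT and 1.14 in WDM, with EGR2 at its bound or not, beside -0.02 and -0.00 over all genes. Against untreated cells in place of tetracycline, which uses the same arsenite libraries, 4 members were called higher in WT (15.2% of all genes) and 5 in WDM (19.0%), EGR3 among them in each. Library size alone moved the median of all genes in the WT arsenite comparison from -0.02 to 0.11. With arsenite, EGR1 was 97.4% ± 0.331 (SD, n = 3) of the summed EGR level per kilobase in WT cytosol and 97.5% ± 0.326 in WDM cytosol. Before it, with tetracycline, EGR1 was 59.5% ± 15.2 in WT and 83.0% ± 6.14 in WDM, and EGR2 was 33.4% ± 16.0 and 7.42% ± 2.80. All these shares depend on the EGR2 level per kilobase, whose counts and exon length come from different gene models and may include ENSG00000289487.

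**Figure D3:**
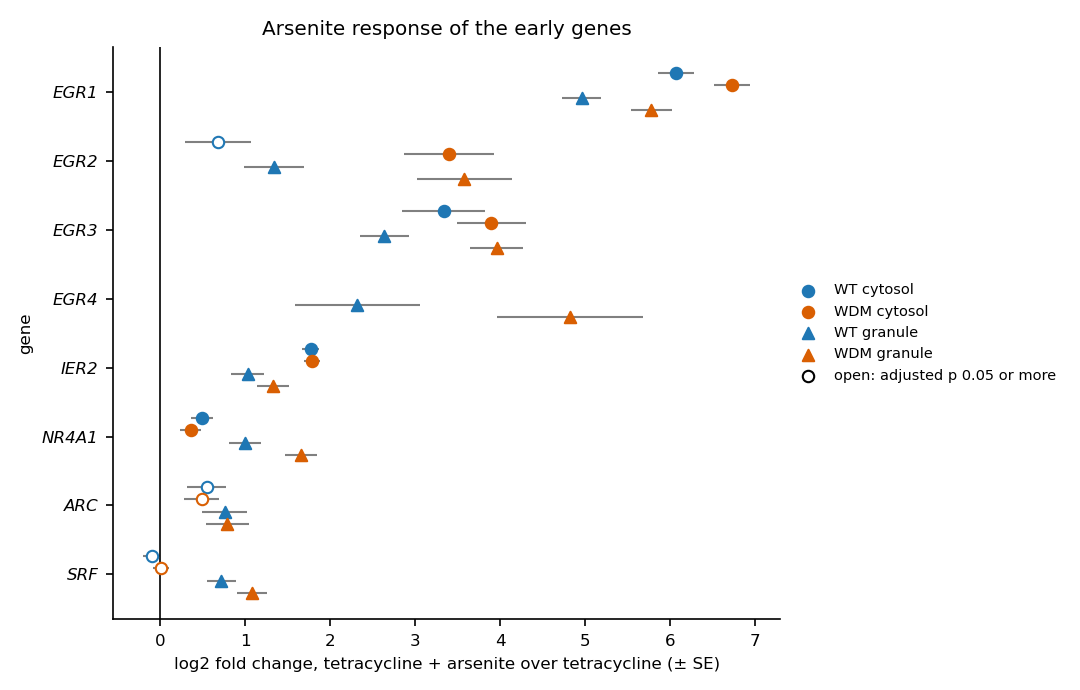
Log2 fold change with arsenite over tetracycline alone (x axis, bars are SE) for each member; circles are cytosol, triangles granules, blue WT, orange WDM, and open symbols had an adjusted p of 0.05 or more. EGR1 lies highest in all 4 contrasts and EGR4 has granule values only, since it was not tested in cytosol.

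The other genes of the pathway are given by list. Of all genes 15.4% fell in WT and 14.8% in WDM cytosol, beside the shares that rose. Of 23 other immediate-early genes, 13 rose and 0 fell with arsenite in WT cytosol (median log2 fold change 0.59), and 17 rose and 0 fell in WDM cytosol (median 0.75). FOS, the partner of JUN in AP-1, rose most, by 4.93 ± 0.256 in WT (adjusted p = 6.52e-09) and 5.52 ± 0.266 in WDM (adjusted p = 3.01e-09). FOSB rose by 3.48 and 4.09, and ZFP36, which promotes mRNA decay, by 2.04 and 2.77. Of 12 cytoskeletal SRF targets, 0 rose and 2 fell in WT (VCL and TPM4, both by 0.30) and 0 rose and 1 fell in WDM (TPM4, by 0.26). Of 17 SRF cofactors and upstream kinases, 3 rose and 3 fell in WT and 3 rose and 0 fell in WDM. MRTFA, an actin-regulated cofactor of SRF, was higher by 0.81 and 0.68. Among the EGR corepressors NAB1 and NAB2 and the NR4A1 paralogs NR4A2 and NR4A3, NAB1 was lower by 0.26 in WT and 0.36 in WDM, and NR4A3 was higher in WDM (1.27 ± 0.358, adjusted p = 0.0131) and stood at 0.90 in WT (adjusted p = 0.0682). The difference in arsenite effect between the lines was called for 0 of these genes.

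**Figure D4:**
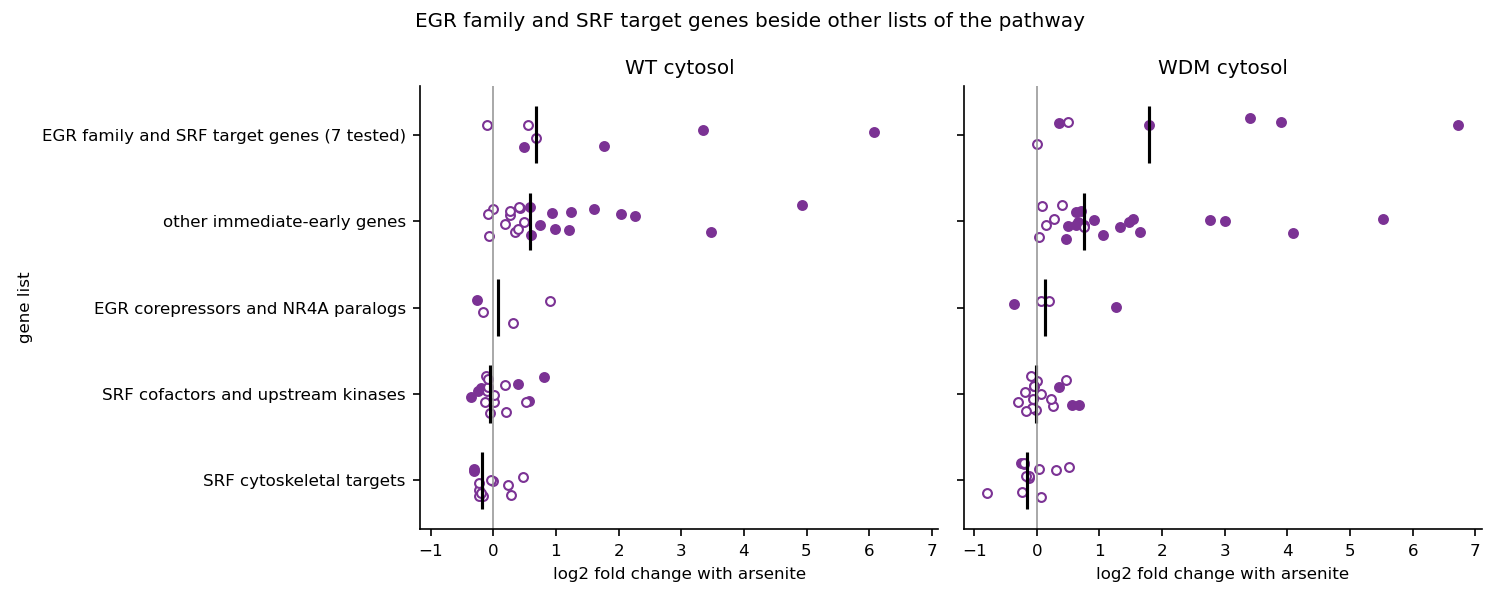
Log2 fold change with arsenite in cytosol (x axis) for the tested members and 4 other lists (y axis), WT left and WDM right; filled points were called, open points were not, and the bar is the median. The immediate-early genes extend to the right with EGR1 and FOS, while the cytoskeletal targets of SRF stay near 0, with medians of -0.19 and -0.15.

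The lines themselves differed in EGR2, by counts that may include ENSG00000289487. Without any treatment EGR2 had 11, 6 and 10 counts in WT cytosol (1.08, 0.632 and 0.965 CPM) and 4, 0 and 4 counts in WDM cytosol (0.279, 0 and 0.350 CPM). With tetracycline it had 12, 13 and 8 counts in WT and 2, 1 and 3 in WDM. In each case every WT library lay above every WDM library, as for 19.3% of all genes untreated and 10.7% with tetracycline. EGR2 was lower in WDM by 2.12 ± 0.602 on the log2 scale untreated (adjusted p = 0.0271), and by at least 2.29-fold with tetracycline (fitted value -2.42 ± 0.622, adjusted p = 0.0123). It was the 1 member called among 7 in each comparison, beside 9.78% of all genes untreated and 12.6% with tetracycline.

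These EGR2 calls rest on few counts, which cannot be told apart from ENSG00000289487. The untreated call was lost without WT replicate 1 (-1.97, adjusted p = 0.0960) or 3 (-2.07, 0.0916), and without WDM replicate 1 (-2.45, 0.0540) or 2 (-1.53, 0.121). The tetracycline call was lost without WT replicate 2 (-2.25, 0.0512) or WDM replicate 3 (-2.39, 0.0845). In a fit of only the groups compared EGR2 did not pass the low-count filter in either comparison, so it has no value there. IER2, NR4A1 and ARC had untreated differences of 0.26, 0.37 and 0.48 that did not pass (adjusted p = 0.103, 0.101 and 0.219). They passed in a fit of only the untreated groups (adjusted p = 0.00661, 0.0187 and 0.0424), and NR4A1 also without WT untreated replicate 2 (0.51, adjusted p = 0.0499). In the untreated libraries all WDM values of these 3 genes and of EGR1 lay above all WT values, as they did for 27.4% of all genes with at least 1 CPM in either group. ARC kept that order with tetracycline (0.58, adjusted p = 0.106) and with arsenite (0.52, adjusted p = 0.116), and passed without WT tetracycline replicate 1 (0.72, adjusted p = 0.0474) and without WDM arsenite replicate 1 (0.72, adjusted p = 0.0236).

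After arsenite, EGR1 and EGR3 were higher in WDM than in WT cytosol. All 3 WDM libraries of each gene lay above all 3 WT libraries, which also held for IER2 and ARC and for 14.7% of all genes. EGR1 differed by 0.59 ± 0.138 (log2, adjusted p = 0.00687) and EGR3 by 0.93 ± 0.268 (adjusted p = 0.0288), so 2 of 7 members were called, beside 10.4% of all genes. The EGR1 call was lost without WDM arsenite replicate 1 (0.42, adjusted p = 0.0574), the highest library. The EGR3 call was lost without WT arsenite replicate 1 (0.99, 0.0645), 2 (0.98, 0.0732) or 3 (0.81, 0.147), without WDM arsenite replicate 1 (0.65, 0.202), and with DESeq2 (0.92, 0.122). EGR2 no longer differed beyond its error (0.30, 95% interval -0.35 to 0.95).

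Whether arsenite acted differently in the lines was tested as an interaction, and no member was called. Of all genes 0% were called in cytosol, where 331 had an unadjusted p under 0.05, and DESeq2 called 0. EGR2 was the 1 member with an unadjusted p under 0.05 there (interaction 2.72 ± 0.710 on the log2 scale, adjusted p = 1.00). For EGR1 the interaction was 0.66 (95% interval -0.05 to 1.36) and for EGR3 0.56 (-1.16 to 2.29). With tetracycline EGR2 in WDM and EGR3 in WT cytosol were at or under the floor, so their interactions rest on very few counts.

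In granules arsenite raised EGR1, EGR2, EGR3, IER2, NR4A1, ARC and SRF in both lines, EGR1 the most. EGR1 was at 12.9, 7.42 and 5.64 CPM in WT granules with tetracycline and at 237, 230 and 277 CPM with arsenite. In WDM granules it was at 7.04, 5.40 and 4.65 CPM and then at 301, 335 and 334 CPM. The arsenite libraries lay above 200 CPM and the others at 12.9 CPM or below. The log2 fold change was 4.96 ± 0.234 in WT (adjusted p = 3.35e-14) and 5.78 ± 0.242 in WDM (adjusted p = 1.43e-15). In the granule fraction, RNA per granule and the amount of granules recovered cannot be told apart either.

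EGR2 and EGR3 rose in granules too. EGR2 was at 2.03, 1.64 and 0.755 CPM in WT granules and then at 3.50, 4.04 and 2.38 CPM (log2 fold change 1.34 ± 0.352, adjusted p = 0.00525). In WDM granules it had 1, 3 and 1 counts with tetracycline and 34, 27 and 57 with arsenite, at least a 5.30-fold increase (adjusted p = 2.28e-05). EGR3 was at 1.02, 0.937 and 0.636 CPM in WT granules and then at 4.61, 5.72 and 4.53 CPM, and at 0.397, 0.395 and 0.429 CPM in WDM granules and then at 7.80, 5.96 and 6.67 CPM. The EGR3 groups did not overlap, and its log2 fold change was 2.64 ± 0.287 in WT and 3.96 ± 0.309 in WDM granules (adjusted p = 1.42e-06 and 2.16e-09). EGR4 had 0, 1 and 3 counts in WT granules and then 5, 12 and 16, and 0, 0 and 1 in WDM granules and then 28, 28 and 9. It entered this test only through the arsenite libraries, where it is high, so its adjusted p (0.0182 in WT and 1.10e-04 in WDM) is given as a description. In WT granules the arsenite mean does not exceed the floor of the smallest library, so no fold is given, and EGR4 was at least 3.08-fold higher in WDM granules.

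The remaining members rose by less. IER2 was at 29.3, 19.3 and 17.4 CPM in WT granules and then at 39.5, 38.2 and 52.8 CPM, and at 18.7, 22.8 and 23.0 CPM in WDM granules and then at 56.0, 54.9 and 59.8 CPM. That gave 1.03 ± 0.192 in WT and 1.33 ± 0.190 in WDM granules on the log2 scale (adjusted p = 2.79e-04 and 8.16e-06). NR4A1 rose by 1.00 ± 0.188 (9.82, 9.21 and 8.42 to 12.9, 22.0 and 19.5 CPM) in WT and by 1.66 ± 0.186 (9.52, 7.84 and 9.55 to 34.6, 26.4 and 28.3 CPM) in WDM granules, with adjusted p = 2.93e-04 and 4.37e-07. The groups did not overlap for either gene, as for 23.3% of all genes in WT and 28.2% in WDM granules.

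SRF, not called in cytosol, rose in granules. It was at 46.7, 44.8 and 39.9 CPM in WT granules and then at 63.1, 64.8 and 85.7 CPM, and at 37.3, 43.7 and 38.7 CPM in WDM granules and then at 71.8, 94.7 and 97.2 CPM. The log2 fold change was 0.72 ± 0.173 (adjusted p = 0.00258) and 1.08 ± 0.173 (adjusted p = 2.99e-05). ARC went from 3.22, 4.84 and 3.14 to 5.25, 5.63 and 7.91 CPM in WT and from 3.57, 3.88 and 5.39 to 5.73, 9.02 and 8.68 CPM in WDM granules, a log2 fold change of 0.76 ± 0.267 (adjusted p = 0.0312) and 0.79 ± 0.256 (adjusted p = 0.0166). For both genes the lowest arsenite library lay above the highest library without arsenite, as for 23.3% of all genes in WT and 28.2% in WDM granules.

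Of the 7 members other than EGR4, 7 were called higher in WT granules, where 16.5% of all genes were, and 7 in WDM granules, where 18.7% were. Their median log2 fold change was 1.03 in WT and 1.66 in WDM granules, with EGR2 at its bound or not, beside -0.03 and 0.01 over all genes. Without WT tetracycline replicate 3, the deepest of its group, EGR2 (0.85, adjusted p = 0.113) and ARC (0.56, 0.218) did not pass, and neither did EGR4 (2.97, 0.0822). EGR4 was also lost in WT without tetracycline replicate 2 (2.29, 0.0522) or arsenite replicate 3 (2.07, 0.0764), and DESeq2 gave it no adjusted p. ARC was lost in WT without tetracycline replicate 1 (0.69, 0.0845) or arsenite replicate 1 (0.84, 0.0544) or 3 (0.54, 0.187). In WDM it was lost without tetracycline replicate 1 (0.67, 0.0622) or 2 (0.73, 0.0665), or arsenite replicate 2 (0.65, 0.0811) or 3 (0.70, 0.0675). Of the 23 other immediate-early genes 22 rose in granules of each line (medians 1.11 and 1.24). Of 11 cytoskeletal SRF targets 3 rose and 3 fell in WT and 3 rose and 1 fell in WDM granules. Of the 4 EGR corepressors and NR4A1 paralogs, 3 rose in granules of each line. They were NAB1 (1.01 in WT and 0.47 in WDM), NAB2 (0.86 and 0.74) and NR4A2 (0.77 and 1.01). In cytosol NAB2 was not called in either line (-0.16 and 0.06). Of 17 cofactors and kinases 6 rose in WT and 5 in WDM granules, with 0 lower in either.

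EGR2 was lower in WDM than in WT granules with tetracycline, and it stayed lower with arsenite, by counts that may include ENSG00000289487. With tetracycline the WT granules had 12, 21 and 19 counts and the WDM granules 1, 3 and 1, at least a 4.96-fold difference (adjusted p = 5.06e-04). It was the 1 member called of 8, beside 5.55% of all genes. With arsenite the WT granules had 66, 94 and 64 counts (3.50, 4.04 and 2.38 CPM) and the WDM granules 34, 27 and 57 (1.53, 1.12 and 2.08 CPM), a log2 difference of -1.14 ± 0.311 (adjusted p = 0.0219). No WDM library reached a WT library in either condition, as for 10.4% of all genes with tetracycline and 12.5% with arsenite.

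With arsenite NR4A1 was higher in WDM granules, by 0.63 ± 0.175 on the log2 scale (adjusted p = 0.0232), and its WDM libraries lay above all WT libraries, as for 15.3% of all genes. So 2 of 8 members were called, beside 7.95% of all genes. The NR4A1 call was lost without WT arsenite replicate 1 (0.47, 0.200) or WDM arsenite replicate 1 (0.57, 0.102) or 3 (0.66, 0.0561). The EGR2 call was lost without WT arsenite replicate 1 (-1.05, 0.137) or 2 (-1.01, 0.0590), or WDM arsenite replicate 1 (-1.07, 0.0804) or 2 (-0.95, 0.0818). EGR1 and EGR3, higher in WDM cytosol with arsenite, differed in granules by 0.30 (95% interval -0.07 to 0.67) and 0.37 (-0.05 to 0.79). With tetracycline alone they were at -0.53 (adjusted p = 0.236) and -0.96 (adjusted p = 0.213).

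No member was called in the granule interaction of arsenite and line, where 0% of all genes were, 2329 genes had an unadjusted p under 0.05 and DESeq2 called 0. At an unadjusted p under 0.05, 4 of 8 members passed, all with the larger increase in WDM granules. They were EGR1 (0.82, adjusted p = 0.280), EGR2 (2.24, 0.254), EGR3 (1.33, 0.271) and NR4A1 (0.66, 0.312). EGR4 had the largest fitted estimate among members, 2.50, with the widest error (SE 1.49). It entered this test only through the arsenite libraries, and no fold is given for it in WT granules. With tetracycline EGR2 and EGR4 were at or under the floor in every WDM granule library, so their estimates rest on very few counts.

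Set against cytosol, EGR1 was enriched in granules in every condition. The log2 ratio was 2.36 ± 0.295 in WT and 1.89 ± 0.306 in WDM with tetracycline (adjusted p = 3.46e-08 and 3.42e-06), and 1.15 ± 0.190 and 0.87 ± 0.188 with arsenite (adjusted p = 4.84e-06 and 1.76e-04). EGR3 was enriched in WT with tetracycline (2.26 ± 0.533, at least 3.55-fold) and with arsenite in WT (1.43) and WDM (0.89). In WDM with tetracycline EGR3 stood at 0.93 (adjusted p = 0.146), or at 1.59 without cytosol replicate 1 (adjusted p = 0.0381). EGR3 passed the low-count filter of this fit through the arsenite libraries. Only 2 of the libraries without arsenite reached the 0.696 CPM that the filter asks for. In a fit of only the groups compared, EGR3 has no value in WT with tetracycline. EGR2 was called in 1 of the 4 conditions, WT with arsenite (1.11 ± 0.323, adjusted p = 0.00323). Its other ratios were 0.55 in WT with tetracycline, where it passed without granule replicate 3 (1.01, adjusted p = 0.0364), and -0.31 in WDM with arsenite. In WDM with tetracycline both fractions were at or under the floor, so no ratio is given.

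IER2 was depleted from granules throughout. Its log2 ratio was -0.58 ± 0.162 in WT and -0.73 ± 0.160 in WDM with tetracycline, and -1.42 ± 0.154 and -1.29 ± 0.152 with arsenite (adjusted p = 0.00192, 1.79e-04, 3.08e-09 and 1.79e-08). In WT with tetracycline the libraries of the fractions overlapped, and in the other 3 conditions all granule libraries lay below all cytosol libraries, as for 40.7%, 39.8% and 36.2% of all genes. IER2 and EGR1, both induced by arsenite, thus sat on opposite sides of the cytosol level.

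NR4A1 and SRF had higher granule ratios with arsenite than without, a shift that is tested as an interaction after this comparison. NR4A1 had a ratio of -0.17 in WT and -0.52 in WDM with tetracycline, and 0.24 and 0.69 with arsenite, with calls in WDM only (adjusted p = 0.00601 and 1.62e-04). In WT with arsenite it passed without granule replicate 1 (0.40, adjusted p = 0.0174). SRF had -0.22 and -0.31 with tetracycline, neither called (adjusted p = 0.190 and 0.0677), and 0.50 ± 0.147 and 0.68 ± 0.146 with arsenite (adjusted p = 0.00360 and 1.64e-04). Its WDM tetracycline ratio passed without cytosol replicate 2 (-0.41, 0.0303) or granule replicate 2 (-0.40, 0.0389). ARC was called in none of the 4 conditions, with ratios from -0.08 to 0.40.

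Across the conditions 3, 3, 5 and 5 of 7 tested members were called in WT with tetracycline, WDM with tetracycline, WT with arsenite and WDM with arsenite. EGR3, which entered this fit through the arsenite libraries, was among them in all but WDM with tetracycline. Over all 18141 genes the shares were 75.7%, 71.1%, 70.5% and 72.0%, so a call between fractions is the usual case in these libraries. Of 12 cytoskeletal SRF targets, 7 were lower in granules in each condition, beside 36.2%, 35.3%, 35.5% and 35.7% of all genes, and 2, 2, 1 and 2 were higher. Of all genes 39.5%, 35.8%, 35.0% and 36.3% were higher. The median log2 ratio of the 12 targets was -1.10, -1.20, -0.88 and -0.72, beside 0.07, 0.02, 0.05 and 0.06 over all genes.

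**Figure D5:**
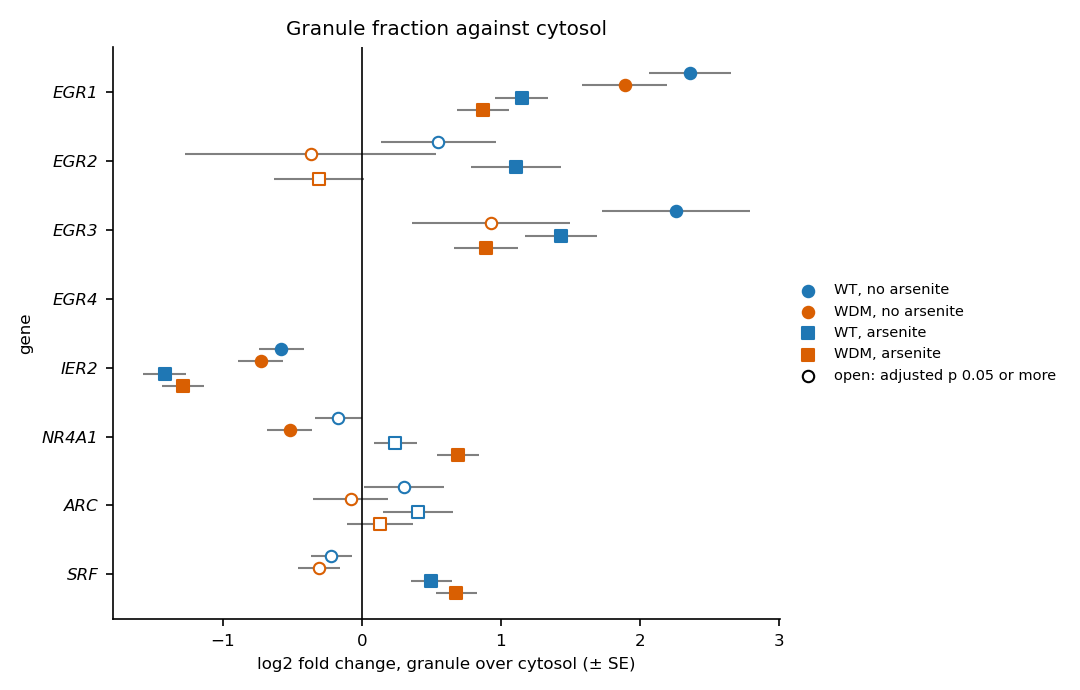
Log2 ratio of granule to cytosol (x axis, bars are SE) for each member; circles are without and squares with arsenite, blue WT and orange WDM, and open symbols had an adjusted p of 0.05 or more. EGR1 lies right of 0 and IER2 left of 0 in all 4 conditions, while SRF moves from below 0 to above it with arsenite; EGR4 was not tested.

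The change of the granule ratio with arsenite was tested as an interaction of fraction and arsenite. In WT cells 3 of 7 members were called, beside 31.4% of all genes. EGR1 had -1.21 ± 0.356 (adjusted p = 0.0108), IER2 -0.84 ± 0.222 (adjusted p = 0.00512) and SRF 0.71 ± 0.210 (adjusted p = 0.0105). In WDM cells 3 of 7 were called, beside 24.2%. EGR1 had -1.02 ± 0.364 (adjusted p = 0.0402), NR4A1 1.21 ± 0.222 (adjusted p = 3.56e-04) and SRF 0.98 ± 0.209 (adjusted p = 0.00127). The median of all genes was -0.21 in WT and -0.17 in WDM, so the EGR1 and IER2 values lay below it and the SRF and NR4A1 values above.

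The EGR1 call in WT was lost without cytosol tetracycline replicate 2 (-0.89, adjusted p = 0.0648), the library with the lowest EGR1 level. In WDM it was lost with library size as the only scaling (-0.96, 0.0742), and without cytosol tetracycline replicate 2 (-1.08, 0.0574) or 3 (-0.82, 0.179), cytosol arsenite replicate 1 (-0.84, 0.0963), granule tetracycline replicate 1 (-0.91, 0.0969) or 2 (-1.03, 0.0595), or granule arsenite replicate 1 (-0.91, 0.0718) or 3 (-1.05, 0.0605). IER2 in WDM had -0.55 (adjusted p = 0.0656) and passed without granule tetracycline replicate 1 (-0.68, 0.0253) and in a fit of only the groups compared (-0.55, 0.0468). NR4A1 in WT had 0.41 (adjusted p = 0.168) and passed without granule arsenite replicate 1 (0.57, 0.0411).

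Whether the granule ratio depended on the line was tested with tetracycline and with arsenite. In each, 0.00551% of all genes and 0 members were called, and 929 and 1200 genes had an unadjusted p under 0.05. DESeq2 called 2 genes and 1 gene, and 0 members. With arsenite, EGR2 (-1.42 ± 0.457, adjusted p = 0.741) and NR4A1 (0.45 ± 0.213, adjusted p = 0.742) were the 2 members with an unadjusted p under 0.05.

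Across the 10 group means, EGR1, EGR3 and EGR4 had the most similar profiles within the EGR family. The correlation of log2 levels was 0.98 between EGR1 and EGR3 and 0.96 between EGR1 and EGR4, while EGR2 had 0.77 with EGR1 and IER2 had 0.67. NR4A1 and SRF had 0.93 with each other. These values describe 10 means that share libraries and carry no p. EGR4 was at or under the floor in every library without arsenite, and EGR3 in several cytosol groups without it. No group mean of EGR4 reached the level asked of the candidate genes below. The low end of the EGR3 and EGR4 profiles therefore depends on the constant added to CPM before the log, which limits their correlations. Among 15048 candidate genes, the profiles most like that of EGR1 were those of OIT3 (0.988), ZFP36 (0.985) and BAG3, a co-chaperone of the heat shock response (0.980). The nearest to EGR3 was ZC3H12A, an RNase of inflammatory mRNAs (0.985), and the nearest to IER2 was ATF3, a stress-induced transcription factor (0.985). For NR4A1 it was the gene CPM, carboxypeptidase M (0.973), for ARC CHAC1, an enzyme that degrades glutathione (0.971), for SRF ZNF687 (0.977), and for EGR2 LINC00863 (0.944).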

How the data were processed

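RNA of 30 libraries (18 cytosol, 12 granule; stranded total-RNA kit after rRNA removal, per the labels' protocols) was sequenced, and the authors deposited a single table of raw counts, with genes in rows and libraries in columns. Per the submitters' processing notes, Trimmomatic, STAR, Picard, featureCounts and GRCh38 were used; versions, annotation and strand setting are not given in the sources used here. Groups and replicate numbers came from the sample titles.

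From the counts, CPM was computed on library size. The tests used edgeR (version 4.0.16, R version 4.3.3; filterByExpr with minimum count 10 and total 15, TMM, robust quasi-likelihood F-test, two-sided, Benjamini-Hochberg over all genes tested) in 24 comparisons. The 18 cytosol, the 12 granule and the 24 tetracycline-treated libraries were each fitted together (biological coefficient of variation 0.103, 0.161 and 0.145). Fits were tested on simulated data. SE is the log2 fold change divided by the root of F, and 95% intervals are the estimate with 1.96 SE on either side. Folds against groups with 3 counts or fewer in every library use 3 counts in that group's smallest library. Replicates differed by more than counting noise (chi-square per degree of freedom 1.63 to 40.7), and all were kept. Replicate 1 of WT cytosol with tetracycline stood apart (23.9 and 24.2, against 2.81 between replicates 2 and 3). So did replicate 1 of WDM granules with tetracycline (40.7 and 33.3, against 3.38). Of the table's identifiers, 60463 of 60664 were found in GENCODE v44. Likeness is the Pearson correlation of group means of log2(CPM + 0.5), for genes of at least 1 CPM. Tried as alternatives were DESeq2 1.42.0, a fit of only the groups compared, scaling by RLE or by library size alone, no low-count filter, a replicate block, leaving out each library, TMM-scaled levels and a pseudocount of 2.

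The 8 members and the 4 gene lists were chosen with earlier results of these data known. Named genes are the members, up to 4 called genes of each list with the largest change, and the 3 profiles most like each member. No batch is labelled, so none was modelled. Figures were drawn with matplotlib 3.10.9 in Python 3.11.15.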

Additional observations from a re-analysis of the deposited data

Results flagged for a closer look

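The effect of arsenite differed between cytosol and granules for several members by an interaction test (edgeR's quasi-likelihood test). In WT cells the log2 change in granules minus that in cytosol was -1.21 for EGR1, -0.84 for IER2 and 0.71 for SRF. In WDM cells it was -1.02 for EGR1, 1.21 for NR4A1 and 0.98 for SRF. EGR1 thus rose by a larger factor in cytosol, from a lower starting level there, while SRF rose in granules and not in the cytosol test. The median of all genes was -0.21 in WT and -0.17 in WDM cells. Of all genes 31.4% in WT and 24.2% in WDM were called in this test. The EGR1 call was lost in 1 of 18 alternatives in WT and in 8 of 18 in WDM. Groups of 3 are too small for the outlier test, so it was not applied.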

How the results depend on the processing

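Of 63 member calls, 47 passed in every alternative tried, 2 passed in all that gave a value, and 14 were lost in at least 1, and none of the 63 changed direction. With only the groups compared, 5 calls had no value, since the gene did not pass the filter: EGR2 between the lines untreated and with tetracycline, EGR3 between fractions in WT with tetracycline, and EGR4 with arsenite in granules of both lines, for which DESeq2 also gave no adjusted p in WT. The lost ones are named with the result. They were EGR2 between the lines, EGR3 and EGR1 between the lines with arsenite, NR4A1 with arsenite in cytosol and between the lines in granules, EGR2, EGR4 and ARC with arsenite in granules, and EGR1 in the interaction of fraction and arsenite. The number of members called moved in several comparisons when 1 library was left out. Smaller moves included arsenite in WDM granules, where ARC was lost in 4 alternatives, and arsenite in cytosol of both lines. The number moved by the largest factors in 5 comparisons. In these 5 the number ran from 0 to 2 between the lines untreated and with tetracycline, each against 1, and from 1 to 2 with arsenite in cytosol. It ran from 5 to 8 for arsenite in WT granules, and from 0 to 2 between the lines in granules with arsenite. Fitting only the groups compared gave 3 members between the lines untreated and 0 with tetracycline, and DESeq2 gave 1 with arsenite.

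Values that were not called and changed sign were SRF with arsenite in WT cytosol (0.03 with library size alone), SRF in WDM cytosol (-0.08 to 0.10 with 1 library left out), EGR3 with tetracycline in WT (-0.57 to 0.08), IER2 in the cytosol for WDM minus WT arsenite effects (-0.02 with library size alone, -0.01 with no filter and with only the groups compared, -0.07 to 0.09 with 1 library left out), and ARC between fractions in WDM (-0.32 to 0.06 with tetracycline, -0.08 to 0.44 with arsenite). Over all genes, a fit of only the groups compared called 220 in place of 886 genes for tetracycline in WT, 2737 in place of 4838 and 1921 in place of 4804 for arsenite in WT and WDM cytosol, and 5463 in place of 1631 and 852 in place of 2108 between the lines untreated and with tetracycline. With 1 library left out, tetracycline in WT called 189 to 1766 genes, and 422 to 771 in WDM against 1050. Arsenite called 2440 to 7204 in WT cytosol, 2490 to 5251 in WDM cytosol and 3157 to 5418 in WT granules against 5620. The lines differed in 929 to 1212 genes untreated, 1209 to 4573 with tetracycline and 1094 to 2205 against 1726 with arsenite in cytosol. The 1766 and the 4573 both came without WT cytosol tetracycline replicate 1. In granules they differed in 570 to 1330 against 1019 with tetracycline and 569 to 1719 against 1460 with arsenite. The interaction of tetracycline and line called 14 genes with no filter, 6 with the replicate block and 10 with DESeq2, against 3. That of arsenite and line in granules called 44 with no filter, against 0.

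Same-numbered libraries deviated together (r over 0.1) in 21 of 45 pairs in cytosol and 7 of 18 in granules. The median r was 0.0889 for same and -0.0301 for different numbers in cytosol, and -0.0767 and 0.121 in granules. These values do not settle whether the numbers pair the samples. The main fits took them as unpaired, and a replicate block was tried beside them. With the replicate block, WDM against WT in untreated cytosol still called 1 member, and the block moved no member count by over 1.5 times. Levels from TMM-scaled library sizes moved by more than 1 SD for EGR3 with tetracycline in WT cytosol (0.169 against 0.157 CPM) and NR4A1 with arsenite there (14.8 against 15.3 CPM). With a pseudocount of 2, the most similar genes changed for EGR2, EGR3 and ARC. Depth limits EGR2, EGR3 and EGR4, whose counts without arsenite were at or near the floor in several groups.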
